A study of Mus musculus with 27 samples.

Results

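Reported target genes of the microRNA miR-155 were followed through mouse lung in a model of severe asthma in which one group received an oligonucleotide against that microRNA. The 34 genes were taken by symbol from a list of targets named in the literature, out of 21742 gene symbols in the deposited table of linear RNA. All 34 had at least 1 TPM (a share of the transcripts of a library, corrected for their length) in at least 5 libraries and entered the tests with 17437 genes in all. The 27 libraries were made from total RNA of the left lobe in BALB/c AnNHsd mice 87 days old, after removal of ribosomal RNA. Saline mice (n = 5 libraries) were unsensitized. CDG_HDM mice (n = 10) had been sensitized with house dust mite extract and cyclic di-GMP, a bacterial second messenger and adjuvant, over 35 days. AM155 mice (n = 6) received 3 intravenous doses of 2 mg/kg antisense oligonucleotide to miR-155, carried by lipid nanoparticles, at days 11, 18 and 25. Dex_CDGHDM mice (n = 6) were sensitized and received 3 intraperitoneal doses of 3 mg/kg of the glucocorticoid dexamethasone on the same days. Whether AM155 mice were sensitized is not spelled out in their labels, and no group received nanoparticles alone. The level of miR-155 itself and of its host gene was not analysed here, so the extent to which the oligonucleotide blocked the microRNA is unknown from these data.

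MicroRNAs are short RNAs that guide an Argonaute protein to messenger RNAs. The seed of the microRNA pairs with a matching site, usually in the 3′ untranslated region (UTR), and the messenger is translated less and degraded faster. miR-155 is made from the transcript of its host gene in activated lymphocytes, macrophages and dendritic cells, and mice without it have weaker antibody and T cell responses. Its best-known targets include brakes on cytokine and phosphoinositide signalling and transcription factors of immune cells. An antisense oligonucleotide that occupies the microRNA is meant to relieve its targets of repression. Messenger levels show the part of silencing that acts through decay, and not the part that acts on translation.

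The mature strand miR-155-5p and the sites that match its seed are shown because direct targets are often sought by such matches. A match does not by itself make a gene a target, and some members have none. The microRNA (chr16:84714143-84714165, plus strand, GRCm38.p6, from the RefSeq table) has its seed, bases 2 to 8, in capitals. No other mature microRNA of that table has this seed. Below it stand the 8mer sites, in capitals, with the 15 bases before them, of the first 10 members in order of role that have one outside the chromosome from which no sequence is shown. They were found in the longest annotated 3′ UTR of each gene (GENCODE M21, GRCm38).
miR-155-5p: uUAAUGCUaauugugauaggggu
Socs1: ctgccgctgtgccgcAGCATTAA
Inpp5d: gagatgtttttaaaaAGCATTAA
Tab2: tgccataaggtagaaAGCATTAA
Spi1: gaccccgccggccatAGCATTAA
Cebpb: accttttccgtttcgAGCATTAA
Bach1: ctctatgaacagtttAGCATTAA
Meis1: ttgcaggatttttagAGCATTAA
Ets1: cactctgggttttaaAGCATTAA
E2f2: ttgttttaagtttgtAGCATTAA
Zfp652: gtgaggttagtccagAGCATTAA

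The windows lie at chr16:10784206-10784228 (Socs1, minus strand), chr1:87719823-87719845 (Inpp5d, plus), chr10:7906691-7906713 (Tab2, minus) and chr2:91115422-91115444 (Spi1, plus). Those of Cebpb (chr2:167690351-167690373, plus), Bach1 (chr16:87732173-87732195, plus) and Meis1 (chr11:18881224-18881246, minus) follow. The last 3 are Ets1 (chr9:32757193-32757215, plus), E2f2 (chr4:136194396-136194418, plus) and Zfp652 (chr11:95764404-95764426, plus). The bases that flank the site differ from gene to gene, while the 8 letters of the match are the same by definition. In Socs1 the match occupies bases 20 to 27 of a UTR of 1993 bases.

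In all, 4 kinds of match were searched on the sense strand, each site being counted under its longest kind. They were the 8mer AGCATTAA, the 7mer-m8 AGCATTA, the 7mer-A1 GCATTAA and the 6mer GCATTA. An 8mer was present in 16 of 34 members (47.1%) and in 560 of 16935 tested genes with a UTR (3.31%). An 8mer or 7mer was present in 26 members (76.5%) and in 2306 of all genes (13.6%). Members had longer UTRs (median 1896.5 bases against 1128), but the number of 8mers per 1000 bases was also higher, at 0.193 against 0.0211. Within the first 1000 bases of UTRs at least that long, 10 of 27 members (37.0%) and 154 of 9145 genes (1.68%) had an 8mer. Targets are often found through such matches, so this share describes how the list came about and is no independent support for it. Jarid2 and Tspan14 each had a pair of 8mers. Il13ra1, Maf and Smad2 had no more than a 6mer, and Myd88, Fadd, Agtr1a, Msh6 and Rhoa had no match in the UTR that was read.

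**Figure D1:**
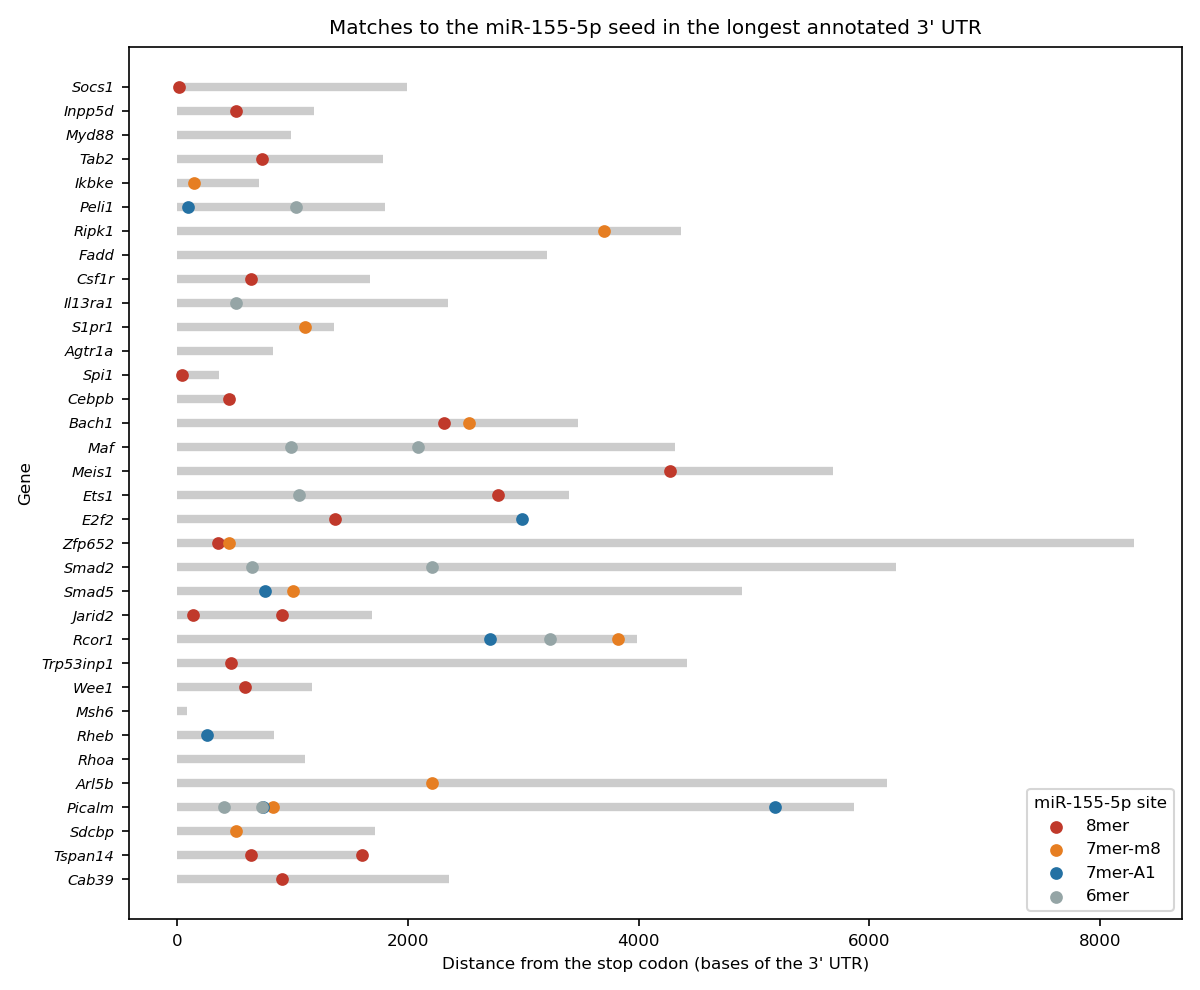
Positions of the matches to the miR-155-5p seed along the longest annotated 3′ UTR of each of the 34 members, in bases from the stop codon on the horizontal axis, 1 gene per row, with the kind of match by color. Of these genes, 16 members carry an 8mer and 5 carry no match.

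The linear values of a library summed to 806446 to 858506 TPM in Saline and to less in the other groups, at 628177 to 798457 in CDG_HDM, 542264 to 770987 in AM155 and 629353 to 767968 in Dex_CDGHDM. Both tables were assumed to share the same total per library. On that assumption the rest lay in circular RNA and outside both tables, and the share outside was 9.57% to 11.1% in Saline and 13.0% to 32.8% elsewhere. A larger share outside would lower every TPM in the table, so 3 other scalings were run. Single libraries also stood low across the members. Saline 4 was the lowest of its group for 28 of 34 members, CDG_HDM 12 for 20, AM155 6 for 32 and Dex_CDGHDM 4 for 26. The last 2 of these libraries, with AM155 5, had the highest circular sums (229968 and 240756 TPM, and 219215 in AM155 5). Lung identity was plain in the markers: the 8 alveolar genes, among them Sftpc, summed to 14520 to 26928 TPM over all libraries, and none was at 0.

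Sensitization changed 17 of the 34 listed targets, in both directions, and the share that fell was near that of all genes. Setting CDG_HDM against Saline shows how the list stood in the inflamed lung without either treatment. By limma, 10 members rose (29.4% of them, against 9.35% of all genes tested) and 7 fell (20.6%, against 22.8%). All genes tested include many just past 1 TPM, while most members stood well above that level. Genes of a level similar to the members were not compared, and the part of level in these shares was not tested. The median log2 change was 0.05 for the members and -0.10 for all genes, and without Saline 4 it was -0.01 and -0.16. Libraries of the groups did not overlap for 7 members (20.6%, against 14% of all genes), of which 4 lay above Saline (5.06% of all genes) and 3 below (8.92%). The largest rises were in the stress gene Trp53inp1 and in Spi1, Csf1r and Inpp5d, genes of myeloid cells. The largest falls were in the homeobox gene Meis1 and in the receptors S1pr1 and Agtr1a. Scaling moved the split: 17 members rose and 7 fell under median-of-ratios scaling and under quantile normalization, and 19 rose and 5 fell with the linear table rescaled to a common sum. Under the same 3 scalings 22.5%, 20.5% and 26.2% of all genes rose and 21.5%, 24.4% and 15.5% fell. The corresponding medians over all genes were 0.01, -0.01 and 0.04. All called changes of members, of either direction, kept their call under these scalings except Zfp652 and Rhoa, which lost it under the common sum (adjusted p = 0.0936 and 0.222).

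**Figure D2:**
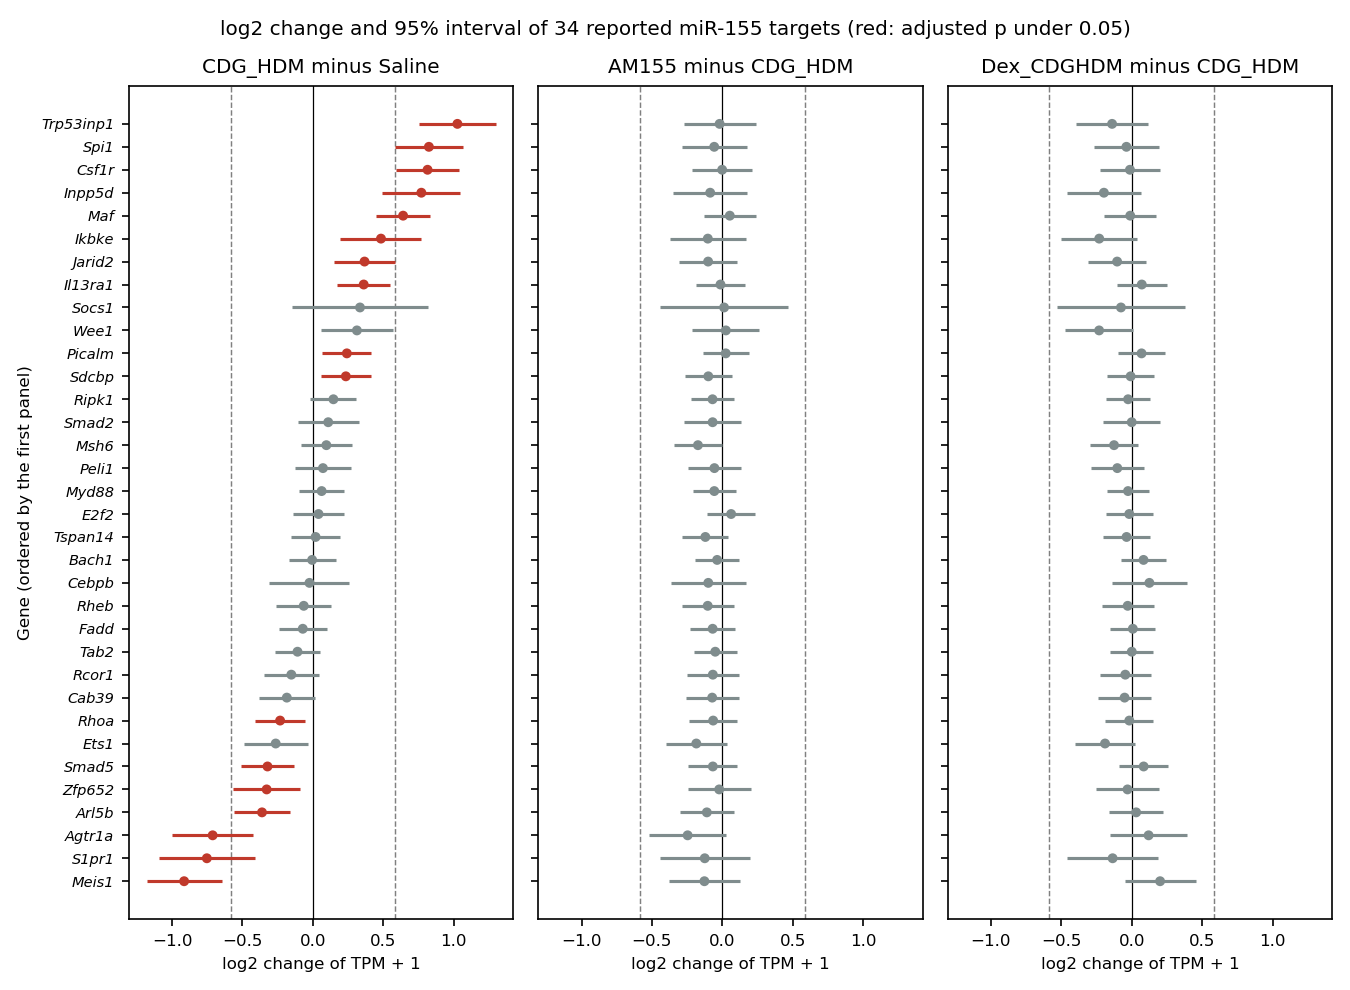
Log2 changes of the 34 members with 95% intervals of the limma model, ordered by the first panel, for CDG_HDM minus Saline, AM155 minus CDG_HDM and Dex_CDGHDM minus CDG_HDM, with members past an adjusted p of 0.05 in red and dashed lines at 1.5-fold. Sensitization shows 10 rises and 7 falls, and all 34 intervals of either treatment lie within 1.5-fold.

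Of the brakes on signalling, Inpp5d rose with sensitization and Socs1 did not pass the test. Inpp5d encodes SHIP1, the phosphatase of blood cells that removes the 5-phosphate from the lipid product of PI3-kinase (chr1:87620312-87720507). It stood at 49.9, 27.5, 47.2, 70.3 and 57.4 TPM in Saline libraries 2, 4, 5, 8 and 10, the order used for all Saline values here. In CDG_HDM it ranged from 69.7 to 100.2 TPM with a median of 83.5. The groups overlapped only through Saline 8, and the log2 change was 0.77 ± 0.136 (SE, adjusted p = 5.61e-05). Socs1, which blocks Janus kinases downstream of interferon and interleukin receptors (chr16:10782240-10785536), was near the lower limit of the table. Its Saline values were 0.579, 0.753, 0, 0.468 and 1.12 TPM, and its CDG_HDM values ran from 0 over a median of 0.912 to 4.44. The ranges overlapped, and the log2 change was 0.33 ± 0.235 (adjusted p = 0.291). At such levels log2(TPM + 1) compresses differences, and the 95% interval, -0.15 to 0.81, leaves room for a rise as large as that of Inpp5d.

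Among the 6 members of innate receptor and death signalling, Ikbke was the member that passed. It encodes IKK-epsilon, a kinase that activates interferon regulatory factors. Saline libraries gave 20.6, 12.3, 19.9, 21.6 and 24.5 TPM, and CDG_HDM libraries 22.4 to 38.8 with a median of 26.9. Every CDG_HDM library lay above the Saline mean although the ranges met, and the log2 change was 0.48 ± 0.141 (adjusted p = 0.00844). It was 0.31 with libraries weighted by quality. Myd88, the adaptor of Toll-like and interleukin-1 receptors, changed by 0.06 on the log2 scale. Tab2, which links those receptors to the kinase TAK1, changed by -0.11 and the ubiquitin ligase gene Peli1 by 0.07. Ripk1, a kinase of cell death and inflammation, changed by 0.15 and Fadd, the adaptor of death receptors, by -0.07. None of these passed as deposited. Myd88, Peli1 and Ripk1 rose under all 3 other scalings, by 0.18, 0.19 and 0.26 with median-of-ratios. More of all genes rose there too, at 22.5%, 20.5% and 26.2% under the 3 scalings against 9.35% as deposited.

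All 4 cell surface receptors passed the test, where 9.35% of all genes rose and 22.8% fell. The roles were chosen with earlier results of these data known, so this count says nothing about receptors as a class. Csf1r, the receptor of macrophage colony-stimulating factor on which macrophages depend, gave 36.4, 37.0, 35.3, 36.2 and 41.5 TPM in Saline. CDG_HDM libraries ranged from 49.9 to 80.5 TPM around a median of 67.9. The groups did not touch, and the log2 change was 0.81 ± 0.111 (adjusted p = 1.26e-06). Il13ra1, a chain of the receptors for interleukin-13 and interleukin-4, rose by 0.36 ± 0.0917 on the log2 scale (adjusted p = 0.00277). S1pr1 guides lymphocytes out of lymph nodes and steadies the junctions of blood vessel walls. Its Saline values were 107, 93.0, 122, 127 and 103 TPM, and in CDG_HDM it spread from 44.6 to 88.6 with a median of 70.6. Every sensitized library was below every Saline library, with a log2 change of -0.75 ± 0.167 (adjusted p = 0.000742). Agtr1a, the angiotensin II receptor, gave 35.7, 26.8, 40.3, 43.8 and 35.6 TPM in Saline and 16.8 to 29.3 in CDG_HDM, median 22.0. The ranges met only at Saline 4, and Agtr1a fell by 0.71 ± 0.141 on the log2 scale (adjusted p = 0.000234).

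The 8 transcription factors split into 2 that rose, 2 that fell and 4 without a call (9.35% of all genes rose and 22.8% fell). Spi1 encodes PU.1, the master factor of macrophage and B cell development (chr2:91082390-91115756). Saline libraries held 36.2, 34.7, 29.9, 39.3 and 43.5 TPM of it, and CDG_HDM libraries 49.6 to 84.8 with a median of 65.0. There was no overlap, and the log2 change was 0.82 ± 0.119 (adjusted p = 3.44e-06). Maf, which drives interleukin-4 and interleukin-10 in T cells and is also a factor of tissue macrophages, went the same way. It stood at 14.2, 10.3, 13.0, 13.9 and 14.2 TPM in Saline and at 17.3 to 25.3 in CDG_HDM, median 21.3. Again the groups were apart, with a log2 change of 0.64 ± 0.0951 (adjusted p = 5.12e-06). Meis1, a homeobox factor of stem cells, endothelium and heart, fell the most of all members (chr11:18879817-19018985). Its values were 72.6, 48.8, 68.1, 75.8 and 68.0 TPM in Saline against 24.8 to 47.5 in CDG_HDM, median 35.0. Even the low Saline 4 was above every sensitized library, and the log2 change was -0.91 ± 0.131 (adjusted p = 2.84e-06). The zinc finger gene Zfp652 fell by 0.33 ± 0.117 (adjusted p = 0.0307). That call was lost without any 1 of Saline 5, 8 and 10 and CDG_HDM 4, 12 and 14 (adjusted p = 0.0504 to 0.117).

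Cebpb and Bach1, long-standing targets of miR-155 in immune cells, did not pass. Cebpb, a factor of the acute phase and of macrophage activation, gave 32.5, 27.4, 32.8, 34.4 and 25.9 TPM in Saline and 21.7 to 38.8 in CDG_HDM, median 30.3. Its log2 change was -0.02 ± 0.139 with a 95% interval of -0.31 to 0.26. Bach1, a repressor of heme oxygenase, gave 22.9, 20.1, 24.3, 24.6 and 21.5 TPM in Saline and 18.8 to 25.3 in CDG_HDM, median 22.6. Its log2 change was -0.01 ± 0.0815 as deposited and 0.15 with the common sum, where it passed (adjusted p = 0.0113). For both genes the sensitized libraries lay on either side of the Saline mean. Ets1, a factor of lymphocytes and endothelium, stood at 136, 101, 130.2, 165 and 159 TPM in Saline and at 96.6 to 136 in CDG_HDM, median 111. It changed by -0.26 ± 0.112 and missed the threshold (adjusted p = 0.0708), but passed without Saline 4, where the change was -0.37 (adjusted p = 0.00887), and without CDG_HDM 4 (0.0472) or AM155 6 (0.0394). E2f2, of the cell cycle, changed by 0.04.

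**Figure D3:**
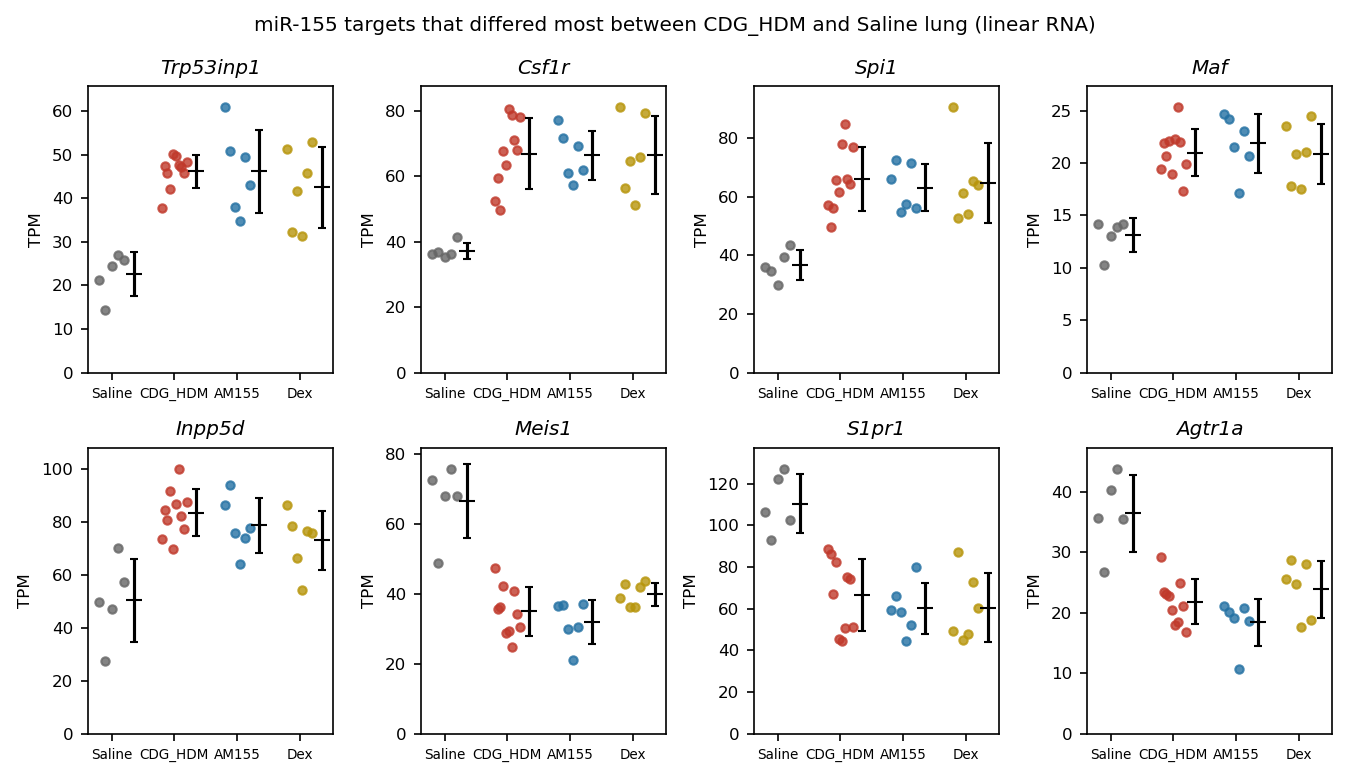
TPM of the members that changed most with sensitization, by group on the horizontal axis, 1 point per library and a bar for the mean ± SD, each panel with its own linear axis from 0. Trp53inp1, Spi1, Csf1r and Maf of all sensitized libraries lie above all Saline libraries and Meis1 and S1pr1 below, and the AM155 and Dex_CDGHDM (Dex on the axis) points overlap those of CDG_HDM.

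Of the Smads and chromatin genes, Jarid2 rose and Smad5 fell. Jarid2, a partner of Polycomb repressive complex 2, stood at 34.03, 19.4, 28.6, 29.5 and 36.0 TPM in Saline and at 30.0 to 41.2 in CDG_HDM, median 39.4. Its log2 change was 0.37 ± 0.107 (adjusted p = 0.00829). Without Saline 4, the low library, it was 0.23 and no longer passed (adjusted p = 0.0507). Smad5, which carries bone morphogenetic protein signals, changed by -0.32 ± 0.0905 (adjusted p = 0.00643), and by -0.21 with median-of-ratios scaling. Smad2, which carries TGF-beta signals, changed by 0.11 and the corepressor gene Rcor1 by -0.15, neither past the test as deposited.

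Trp53inp1, which p53 induces under stress and which takes part in autophagy, had the largest change of the list (chr4:11156431-11174379). Saline libraries gave 21.2, 14.4, 24.5, 26.9 and 25.8 TPM and CDG_HDM libraries 37.6 to 50.1 with a median of 47.2. The lowest sensitized library was above the highest Saline library, and the log2 change was 1.03 ± 0.133 (adjusted p = 6.09e-07). Wee1, the kinase that holds cells before mitosis, stood at 3.95, 4.06, 3.79, 3.25 and 3.95 TPM in Saline and at 3.39 to 6.54 in CDG_HDM, median 5.26. Its log2 change of 0.31 ± 0.124 missed the threshold (adjusted p = 0.0528) and passed under each of the other scalings. It also passed without Saline 4, CDG_HDM 3, 12, 13 or 14, or AM155 6, 8 or 11 (adjusted p = 0.0214 to 0.0488). Msh6, a DNA mismatch repair gene, gave 10.6, 8.87, 10.6, 10.8 and 9.97 TPM in Saline and 8.89 to 13.4 in CDG_HDM, median 10.9. It changed by 0.10 on the log2 scale, again without a call as deposited.

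Changes of the 7 genes of GTPases, trafficking and scaffolds were small, between -0.36 and 0.24 on the log2 scale. Arl5b, an Arf-like GTPase of the Golgi, changed the most (-0.36 ± 0.0988, adjusted p = 0.00523), with every sensitized library (7.56 to 10.8 TPM) below every Saline library (11.2 to 13.1). Sdcbp encodes syntenin, a scaffold of exosome formation, and gave 146, 134, 149, 163 and 159 TPM in Saline and 149 to 192 in CDG_HDM, median 181. It rose by 0.23 ± 0.0877 (adjusted p = 0.0401). Picalm, of clathrin-mediated uptake, rose by 0.24 (adjusted p = 0.0295) and Rhoa, which controls actin and contraction, fell by 0.23 (adjusted p = 0.0422). Each of these 3 calls was lost on leaving out 1 library of several. That of Picalm was lost without Saline 2 or 5 (adjusted p up to 0.0839). That of Sdcbp was lost without Saline 2, 4 or 5 or CDG_HDM 4, 5, 7, 9, 10, 13 or 14 (up to 0.091). That of Rhoa was lost without Saline 2, 5, 8 or 10 or CDG_HDM 4, 8, 12, 13 or 14 (up to 0.108). Tspan14, a tetraspanin that escorts the protease ADAM10, stood at 45.5, 36.8, 47.1, 47.7 and 49.2 TPM in Saline and at 39.9 to 48.6 in CDG_HDM, median 46.1. Its log2 change was 0.02. Rheb, the activator of mTORC1, changed by -0.06 and Cab39, a scaffold of the kinase LKB1, by -0.19, without a call.

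Cell type markers moved along with these genes, and their part in the result was not tested. In a piece of whole lung, more or fewer cells of a type and more or less RNA per cell cannot be told apart. Of 12 macrophage markers 8 rose and 2 fell, and their sum was 3059 to 3543 TPM in Saline and 4832 to 8909 in CDG_HDM. C1qb, C1qc and C1qa, complement genes of tissue macrophages, rose by 2.67, 2.57 and 2.53 on the log2 scale, while Marco, of alveolar macrophages, fell by 0.79. Of 11 T cell markers 10 rose (sum 108 to 192 TPM against 284 to 483). Of 8 B cell markers 1 rose, Cd79a, and the sums overlapped (195 to 387 TPM against 208 to 454). All 10 endothelial markers but 1 fell (sum 2656 to 3212 TPM against 1161 to 2233), with Tek the furthest at -1.36. All 7 smooth muscle markers fell (604 to 813 TPM against 159 to 432), as did all 7 of heart muscle (455 to 1314 against 84.3 to 338). Of 8 pericyte and fibroblast markers 1 rose and 4 fell (774 to 860 TPM against 604 to 1043), and 5 of 6 airway markers fell (66903 to 79150 against 22441 to 51465). Of 8 alveolar markers 1 rose and 3 fell (20648 to 22913 TPM against 17716 to 26928). Of all genes tested, 9.35% rose and 22.8% fell. No marker of these lists was at 0 in any library. Csf1r, Spi1, Inpp5d and Maf rose where most macrophage and T cell markers were higher. Meis1, S1pr1 and Agtr1a fell where most markers of vessels, smooth muscle, heart muscle and airway were lower. Only these called members are set beside markers here. The other called members, among them Trp53inp1 with the largest change, are not.

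Treatment with the oligonucleotide against miR-155 left no listed target past the test. AM155 against CDG_HDM asks whether targets stood higher once the microRNA was meant to be blocked. Of 34 members 0 rose and 0 fell by limma, where 0.0918% of all genes tested rose and 0.0115% fell (0.103% together), and 1 member, Msh6, had an unadjusted p under 0.05 (7.24% of all genes did). The median log2 change was -0.07 for the members and -0.08 for all genes. As deposited, 5 members had a positive change (17.6% of all genes did). The count of positive members was 21, 22 and 27 under median-of-ratios, quantile and common-sum scaling, with medians of 0.01, 0.03 and 0.05, and without AM155 6 it was 15 with a median of -0.01. The sign of these small changes therefore depended on the scaling and on 1 library, and under every setting tried the count of calls stayed at 0.

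The 95% intervals bound how large a rise the data leave room for. All 34 lay within 1.5-fold in either direction (96.5% of all genes did). The highest upper bound was that of Socs1, 0.47 on the log2(TPM + 1) scale or 1.38-fold, and the lowest lower bound that of Agtr1a, -0.52. Socs1 is the exception to this precision, because it is near 0: with a pseudocount of 0.1 its interval ran from -0.87 to 1.26, up to 2.39-fold, and 33 of 34 members stayed within 1.5-fold. An interval that includes 0 does not show that a level was equal. The limit of 1.5-fold was not drawn from a known size of relief, and smaller rises may go unseen.

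The ranges of 6 long-standing targets in AM155 overlapped those in CDG_HDM, and none of the 6 passed the test. Socs1 ranged from 0.374 to 1.81 TPM in AM155 with a median of 0.957 (CDG_HDM median 0.912), and the difference was 0.01 ± 0.222. Inpp5d ranged from 64.4 to 94.1 TPM, median 77.0, and the difference was -0.09 ± 0.128 (95% interval -0.35 to 0.18). Spi1 ranged from 54.9 to 72.4 TPM, median 61.7, a difference of -0.06 ± 0.112 (-0.29 to 0.17). For none of these did an AM155 library lie above the highest CDG_HDM library. Cebpb ranged from 21.6 to 43.0 TPM, median 26.9, a difference of -0.10 ± 0.131 (-0.37 to 0.17). Bach1 ranged from 16.8 to 25.4 TPM, median 22.6, a difference of -0.04 ± 0.0769 (-0.19 to 0.12). Maf ranged from 17.1 to 24.7 TPM, median 22.3, a difference of 0.05 ± 0.0897 (-0.13 to 0.24). AM155 6 lay below every CDG_HDM library for Inpp5d, Cebpb, Bach1 and Maf, and AM155 11 above every one for Cebpb.

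The 5 members with the smallest p in this comparison all pointed down as deposited. Msh6 ranged from 7.10 to 11.5 TPM in AM155, median 10.0, a difference of -0.17 ± 0.0826 (unadjusted p = 0.0448, adjusted p = 0.681). Agtr1a ranged from 10.7 to 21.1 TPM, median 19.7, a difference of -0.25 ± 0.133 (adjusted p = 0.684), and all 6 libraries lay below the CDG_HDM mean. Ets1 ranged from 72.7 to 124 TPM, median 102, a difference of -0.18 ± 0.105 (adjusted p = 0.684). For these 3 genes the lowest value was that of AM155 6, the library that was low throughout. Tspan14 (32.2 to 49.1 TPM, median 43.6) differed by -0.12 and Sdcbp (133 to 187 TPM, median 168) by -0.10. None of the members that had moved most with sensitization passed here. Trp53inp1 ranged from 34.8 to 60.8 TPM in AM155, median 46.2, and Meis1 from 21.0 to 37.1, median 33.7. S1pr1 ranged from 44.6 to 80.2 TPM, median 58.9, and Csf1r from 57.4 to 77.2, median 65.6. Ikbke ranged from 20.7 to 31.6 TPM, median 25.3, and Jarid2 from 29.4 to 42.2, median 34.4.

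**Figure D4:**
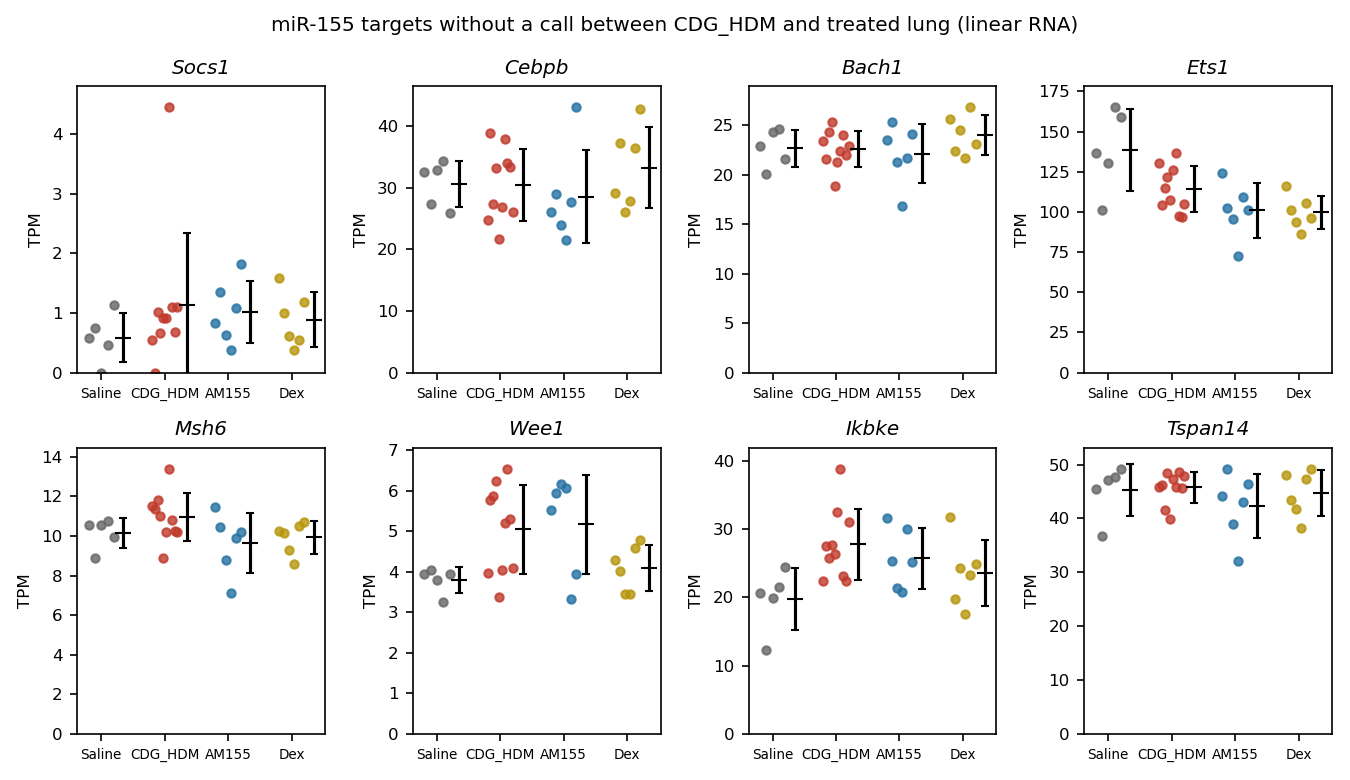
TPM of classical targets and of members with the smallest p in the treatment comparisons, by group on the horizontal axis, 1 point per library and a bar for the mean ± SD (cut at 0 for Socs1), each panel with its own linear axis from 0. AM155 and Dex_CDGHDM (Dex on the axis) points overlap CDG_HDM in every panel, and 1 CDG_HDM library stands at 4.44 TPM of Socs1.

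Genes were also described by their best seed match in the UTR. Taking all genes tested, the median log2 change from CDG_HDM to AM155 was -0.07 for the 560 genes whose best site was an 8mer. It was -0.07 for 981 genes with a 7mer-m8, -0.07 for 765 with a 7mer-A1, -0.08 for 1279 with a 6mer and -0.08 for 13350 with no match. Among these classes, 0 genes with an 8mer passed the test in either direction and 1 with a 7mer-A1 was higher, as were 15 without a match, where 1 was lower. The 16 members with an 8mer had a median of -0.05 and the 8 whose best site was a 7mer-m8 had -0.08. In sensitization, genes with an 8mer had a median of -0.11 (34 higher and 133 lower of 560) and genes without a match -0.10 (1315 higher and 3072 lower of 13350). Members with an 8mer had a median of 0.03 there, with 5 higher and 2 lower of 16. These medians are descriptions, and no test between classes was made.

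**Figure D5:**
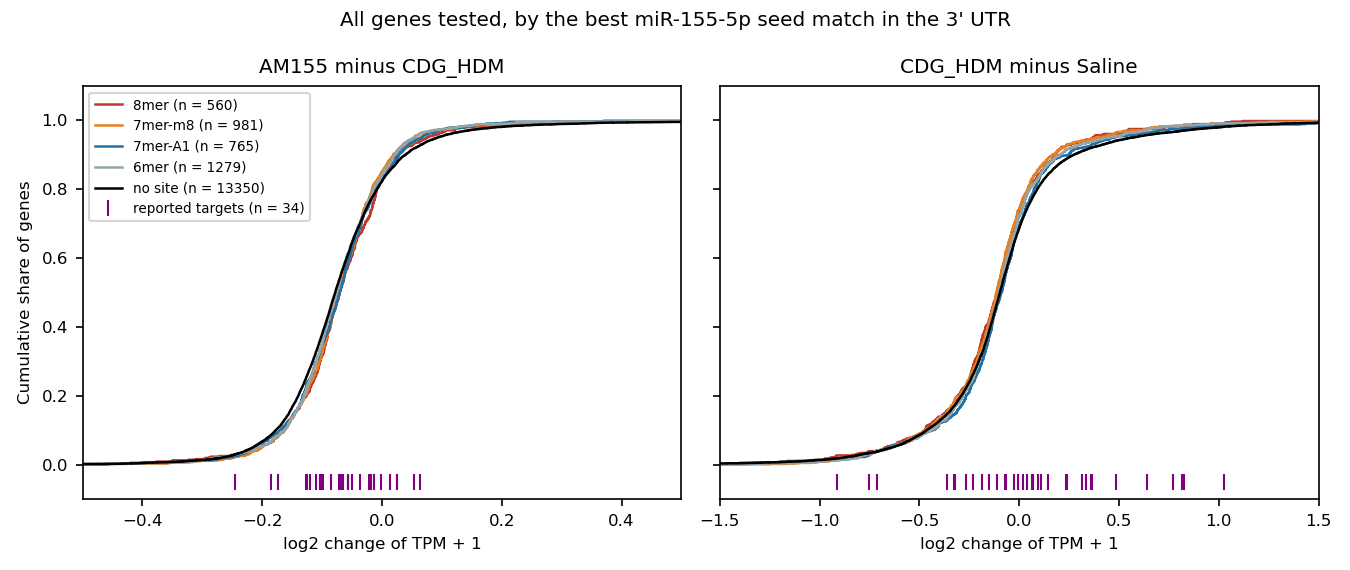
Cumulative share of all genes tested (vertical axis) by log2 change (horizontal axis, tails beyond its limits not shown) for each kind of best miR-155-5p seed match in their longest 3′ UTR, for AM155 minus CDG_HDM and CDG_HDM minus Saline, with ticks for the 34 members. The curves lie close together, and in AM155 minus CDG_HDM the medians lie between -0.07 and -0.08 for every class.

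Dexamethasone likewise left no member past the test. In Dex_CDGHDM against CDG_HDM, 0 members rose and 0 fell, where 0% of all genes rose and 0.00573% fell. No member had an unadjusted p under 0.05 (3.97% of all genes did), and the median log2 change was -0.03 (all genes -0.01). All 34 intervals lay within 1.5-fold (96.3% of all genes), and 33 did with quantile normalization, where Socs1 reached -0.59, or with a pseudocount of 0.1. The smallest p was that of Wee1, which ranged from 3.44 to 4.78 TPM with a median of 4.16 and differed by -0.23 ± 0.117 (unadjusted p = 0.057). All 6 dexamethasone libraries lay below the CDG_HDM mean of Wee1, and the Saline values were 3.25 to 4.06 TPM. Ets1 (86.2 to 116 TPM, median 98.6) differed by -0.19 and Ikbke (17.5 to 31.7 TPM, median 23.8) by -0.23. Meis1 (36.2 to 43.6 TPM, median 40.3) differed by 0.20 and Inpp5d (54.5 to 86.6 TPM, median 76.2) by -0.20. For Meis1 all 6 libraries were above the CDG_HDM mean, and for Inpp5d 5 of 6 were below it. Socs1 ranged from 0.378 to 1.59 TPM (median 0.806), Spi1 from 52.6 to 90.5 (median 62.6) and Cebpb from 26.1 to 42.7 (median 32.8). Bach1 ranged from 21.6 to 26.8 TPM (median 23.8) and Maf from 17.5 to 24.5 (median 21.0).

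Each treated group was also set against the same Saline libraries. In AM155, 8 members were higher and 8 lower (7.82% and 32.7% of all genes), and in Dex_CDGHDM 7 were higher and 6 lower (7.59% and 17.5%). These comparisons share the Saline libraries with each other and with the comparison above, so their likeness is built in. Trp53inp1 was higher by 1.01 ± 0.147 in AM155 and by 0.89 ± 0.147 in Dex_CDGHDM, on the log2 scale. Meis1 differed by -1.04 ± 0.145 and by -0.71 ± 0.145 in the same order. Csf1r differed by 0.81 and 0.80, Spi1 by 0.77 and 0.79, Maf by 0.69 and 0.63 and Inpp5d by 0.68 and 0.57 (0.38 in Dex_CDGHDM without Saline 4). S1pr1 differed by -0.88 and -0.89 and Agtr1a by -0.96 and -0.59. All these passed in both comparisons. Ets1 was lower in both (-0.45 in each, adjusted p = 0.00512 and 0.00688), but not with the common sum, nor in AM155 with quantile normalization. The other calls in AM155 were Il13ra1, Picalm and Wee1, higher, and Arl5b, Smad5, Zfp652 and Rhoa, lower, and in Dex_CDGHDM Il13ra1 and Picalm, higher, and Arl5b and Zfp652, lower. Several of these rested on scaling or on 1 library. In AM155, Zfp652 lost its call under all 3 other scalings and Rhoa under 2 of them, and Arl5b and Smad5 lost theirs with the common sum. Leaving out 1 library ended the call of Zfp652 (Saline 5, 8 or 10 or AM155 5, 6 or 8, adjusted p = 0.0547 to 0.102) and of Picalm (Saline 2 or 5 or AM155 5, 0.0596 to 0.0652). Wee1 lost its call without any 1 of Saline 2, 5, 8 and 10, CDG_HDM 4, 5, 7, 8 and 13, AM155 2, 3, 5 and 6 and all 6 dexamethasone libraries (up to 0.122). In Dex_CDGHDM, Zfp652 lost its call without Saline 2, 5, 8 or 10 or Dex_CDGHDM 1, 3 or 4 (0.0579 to 0.129), and Arl5b without the same Saline libraries or Dex_CDGHDM 1 or 3 (0.0512 to 0.0772). Both also lost it with the common sum (0.173 and 0.237). Ikbke and Jarid2, called in CDG_HDM, missed the threshold in AM155 (adjusted p = 0.0507 and 0.0701) and in Dex_CDGHDM (0.245 and 0.102). A call in one group and not in another is no test of their difference. The direct comparison of Dex_CDGHDM with AM155 called 0 of 34 members (0.0803% of all genes), and 2 had an unadjusted p under 0.05 (7.37% of all genes). In it, Agtr1a was higher with dexamethasone by 0.37 ± 0.149 (unadjusted p = 0.0199, adjusted p = 0.544) and Meis1 by 0.33 ± 0.138 (0.0236 and 0.572).

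Genes around the targets were described from lists of pathway and family genes. Of 22 genes that make microRNAs or carry out silencing, 0 rose and 4 fell in CDG_HDM against Saline (18.2%, below the 22.8% of all genes that fell). Ago1, an Argonaute, fell by 0.29 (adjusted p = 0.0101), Drosha, which cuts the primary transcript, by 0.29 (0.0182) and Dicer1, which cuts the hairpin, by 0.25 (0.0394). The fourth was Pan2, of the deadenylase that trims the tails of silenced messengers. The direction of this list rested on scaling: 2 rose and 3 fell with median-of-ratios, 1 rose and 5 fell with quantile normalization, and 5 rose and 1 fell with the common sum. Drosha alone of the 4 passed under all of them.

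Relatives of the members, 45 of 46 tested, gave 7 rises (15.6%) and 15 falls (33.3%) with sensitization. Of all genes tested, 9.35% rose and 22.8% fell. The rises and falls of relatives were 14 and 14 with median-of-ratios scaling, 13 and 16 with quantile normalization and 15 and 12 with the common sum. Flt3, a receptor of dendritic cell precursors related to Csf1r, rose by 1.35 on the log2 scale and Spib, related to Spi1, by 0.77. The endothelial factor Erg fell by 0.81, Meis2 by 0.67 and the stem cell factor receptor Kit by 0.64.

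Counts of 3 pathways in which targets act are set beside the 9.35% of all genes that rose and the 22.8% that fell, with no test of the lists. Under the 3 other scalings 22.5%, 20.5% and 26.2% of all genes rose and 21.5%, 24.4% and 15.5% fell. Of 20 Jak-Stat genes 8 rose (40%) and 1 fell (5%), and 16, 15 and 17 rose under the 3 other scalings. The phosphatase gene Ptpn6 rose by 0.80 on the log2 scale and the kinase gene Jak3 by 0.71, while Il4ra fell by 0.38. Of 28 Toll-like receptor and NF-kB genes 10 rose (35.7%) and 2 fell (7.14%), with 21, 20 and 21 rises under the other scalings. Tlr2 rose by 1.03, Tlr9 by 1.02 and Nfkbie, an inhibitor of NF-kB, by 0.88, while Ikbkg fell by 0.29 and Rela by 0.23. Of 24 TGF-beta and BMP genes 3 rose (12.5%) and 15 fell (62.5%), and 14, 16 and 10 fell under the other scalings. Eng, Bmp6 and Tgfbr3 fell the furthest (by 1.11, 1.05 and 1.03), and Id2, Tgfbr1 and Tgfb1 rose (by 0.81, 0.60 and 0.24). Endothelial markers, given above, were lower in the same libraries, and their part in the result was not tested. In AM155 against CDG_HDM, 0 genes of these lists passed, as deposited or under the 3 other scalings. In Dex_CDGHDM against CDG_HDM, 0 passed as deposited. There S1pr4, a receptor of lymphocytes related to S1pr1, differed by -0.33 (adjusted p = 0.526), and it was lower with median-of-ratios scaling (adjusted p = 0.0336) and quantile normalization (0.03) but not with the common sum. Among cell type markers, the T cell gene Cd2 was lower and the pericyte gene Pdgfrb higher under all 3 other scalings (by -0.48 and 0.27 with median-of-ratios), and neither passed as deposited (adjusted p = 0.0969 and 0.936). These 3 genes were chosen after their values were seen.

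Circular RNA was listed for 17 of the 34 members, by gene symbol only. Picalm had circular RNA in all 27 libraries, at 10.1 to 23.6 TPM in Saline, 14.3 to 36.5 in CDG_HDM, 14.8 to 39.3 in AM155 and 21.6 to 37.4 in Dex_CDGHDM. The other members were listed at 0 in many libraries. Ets1 and Smad2 were above 0 in 13 libraries each, Smad5 in 12, Jarid2 in 9, Bach1 and Zfp652 in 8, and Inpp5d and Peli1 in 6. Smad2 was above 0 in 5 of 5 Saline libraries, 5 of 10 CDG_HDM libraries, 1 of 6 in AM155 and 2 of 6 in Dex_CDGHDM. Inpp5d was above 0 in no Saline library and in 3 of 10 CDG_HDM libraries. Bach1 was above 0 in 3 of 5 Saline, 3 of 10 CDG_HDM, 0 of 6 AM155 and 2 of 6 Dex_CDGHDM libraries, and Meis1 in AM155 only. These splits are examples, given without the share over all rows of circular RNA. Rcor1 followed in 5 libraries, Tab2, Meis1 and Rheb in 3, and Ripk1, Rhoa and Arl5b in 1, while S1pr1 had a row at 0 throughout. With so many zeros and no read counts, no test was made on these values.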

How the data were processed

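RNA of 27 lung libraries was measured as linear and circular transcripts. The authors deposited both tables in TPM per gene symbol, and per the submitters' processing notes used CASAVA 1.9 and the mm10 build. For the aligner and quantifier, a name is not given in the sources used here. Since TPM holds no counts, sequencing depth is unknown here and no counting interval is given. Of the gene symbols, 26 had been turned into dates and were left as they stood.

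From these values limma 3.58.1 (R 4.3.3) was fitted to log2(TPM + 1) of all genes that reached 1 TPM in 5 or more libraries, with a mean trend in the variance, all 4 groups sharing 1 estimate of spread. Tests were two-sided, p-values were adjusted by Benjamini-Hochberg over all genes of a comparison, and a call is an adjusted p under 0.05. Fold changes on this scale understate those of low genes. The script was tested on simulated data. Seed matches were counted with Python 3.11.15 and pandas 2.3.3.

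The members, roles and lists were chosen with earlier results of these data known. Values by library are given for the 10 called members of largest change with sensitization, for called members or else the 5 of smallest p in each treatment comparison, and for 6 long-standing targets. Up to 3 called genes per direction of other lists are named, except that some are not reported here. Nothing in the labels says that each library came from a separate mouse, so p-values measure only the spread between these libraries, which may be technical. The labels also name a pair of read lengths without saying which libraries had which, so read length was not modelled and its part in any comparison was not tested. Libraries that share a number across groups did not deviate together (20 pairs, r from -0.24 to 0.27, 2 over 0.1), so the numbers were not used as pairs. Alternatives were other pseudocounts, filters, scalings, library weights, fits of 2 groups, a replicate block and leaving out libraries. One of them, leaving out the 2 libraries of highest circular sum, was chosen after seeing the data.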

Additional observations from a re-analysis of the deposited data

Results flagged for a closer look

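In 10 of 136 combinations of member and group, the highest or lowest library stood apart from the rest of its group by Dixon's criterion, which chance alone meets in about 1 in 20 groups. Saline 4 was the low library for 4 genes. It held 28.2 TPM of Myd88 (next 31.6), 48.8 of Meis1 (next 68.0), 11.2 of Arl5b (next 12.9) and 70.6 of Cab39 (next 84.6). AM155 6 was low for Agtr1a at 10.7 TPM (next 18.7) and CDG_HDM 12 for Tab2 at 18.2 (next 22.2). The other 4 stood high. Socs1 was at 4.44 TPM in CDG_HDM 4 (next 1.11) and Csf1r at 41.5 in Saline 10 (next 37.0). Spi1 was at 90.5 TPM in Dex_CDGHDM 1 (next 65.3) and Cebpb at 43.0 in AM155 11 (next 28.9).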

How the results depend on the processing

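In the comparisons of AM155 or Dex_CDGHDM with CDG_HDM and with each other, the count of called members was 0 under every setting tried. Against Saline the counts moved with the scaling. With median-of-ratios, quantile and common-sum scaling, members called higher were 17, 17 and 19 in CDG_HDM, 17, 17 and 20 in AM155 and 15, 13 and 17 in Dex_CDGHDM. All genes moved too, with 22.5%, 20.5% and 26.2% higher in CDG_HDM in the same order (9.35% as deposited). The shares were 20.3%, 18.7% and 26.9% in AM155 (7.82% as deposited) and 18.1%, 16.8% and 25.6% in Dex_CDGHDM (7.59%). With the common sum 3 members were lower in AM155 (12.3% of all genes) and 3 in Dex_CDGHDM (10.3%). In Dex_CDGHDM library quality weights, and leaving out Saline 4 and AM155 6 together, gave 10 lower members each. The change of Bach1 with sensitization turned to 0.15 with the common sum. Leaving out 1 library at a time, 8 to 11 members were higher and 5 to 8 lower in CDG_HDM, 6 to 9 and 7 to 11 in AM155, and 7 to 8 and 4 to 9 in Dex_CDGHDM. The cause of these shifts was not tested. With the replicate block the counts were 10 and 7 in CDG_HDM, 8 and 8 in AM155 and 7 and 6 in Dex_CDGHDM, as without it, and the pairing of numbers was not borne out. Of single genes in CDG_HDM against Saline, leaving out 1 library ended a call in 28 fits and gave one in 11. TPM without counts leaves the precision of low genes unknown, which limits Socs1 above all.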
